A study of Mus musculus with 10 samples.

Results

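The genes that burn fatty acids in the liver, and other targets of the nuclear receptor PPARα, were followed in livers of mice dosed with CCl4 or with oil. The list held 33 genes of mitochondrial and peroxisomal fatty acid oxidation, ketone production and PPARα signalling. A gene was measured where a probe set of the array carried its symbol and no other, and 27 of the 33 had such a probe set, 1 each, out of 14860 genes and 23332 probe sets in all. Acot1, Acadl, Hadhb, Acaa1a and Acaa1b were present only on probe sets that carry several gene symbols, and Acsl1 had no probe set in the annotation used. These 6 were not analysed here. Both groups were male Balb/c mice, 8 weeks old when obtained, kept on a light and dark cycle with food and water at all times and treated for 6 weeks. The 5 CCl4 mice received carbon tetrachloride, which hepatocytes metabolise to toxic radicals and which leaves a fibrotic liver on repeated dosing, and the 5 oil mice received the oil alone. RNA of whole liver was hybridised to 1 whole-transcript Affymetrix array per mouse. Livers were taken 2 days after the final dose, and the hour of sampling is not given in the sources used here.

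Fatty acids enter the mitochondrion on carnitine, and each turn of the oxidation spiral then removes an acetyl unit through a dehydrogenase, a hydratase, a second dehydrogenase and a thiolase. Very long chains are shortened first in the peroxisome, and in hepatocytes much of the acetyl-CoA leaves as ketone bodies. PPARα, bound to its partner RXR, switches many of these genes on when fatty acids reach the liver, most strongly in fasting, and in rodents synthetic PPARα agonists do the same.

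None of the 27 genes changed between CCl4 and oil livers at an adjusted p under 0.05 (limma, Benjamini-Hochberg adjustment over all 23332 probe sets). Over all probe sets, 0.630% were called higher and 0.0900% lower in the same fit. At an unadjusted p under 0.05, 3 of the 27 were higher in CCl4 livers (Vnn1, Acot2 and Slc25a20) and 0 were lower, where 7.03% of all probe sets were higher and 4.27% lower. In 2 of the 27, Acot2 and Acadm, every CCl4 liver lay above every oil liver, and in 0 every CCl4 liver lay below, where 2.73% and 1.16% of all probe sets did so. By the methods' t-test with the study's thresholds, p under 0.05 without adjustment and more than 1.6-fold, 2 members were higher (Acot2 and Vnn1) and 0 lower, where 2.34% and 0.664% of all probe sets were.

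The typical difference was small. The median log2 fold change, CCl4 minus oil, was 0.13 over the 27 genes and 0.0078 over all probe sets, with 16 genes above 0 and 11 below. It ranged from -0.60 for Fabp1 to 2.24 for Vnn1. The 95% confidence interval of the log2 fold change lay within ±1 for 18 of the 27 and within ±0.5 for 14. All 27 probe sets were brighter, on the mean of the 10 arrays, than the median probe set.

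**Figure D1:**
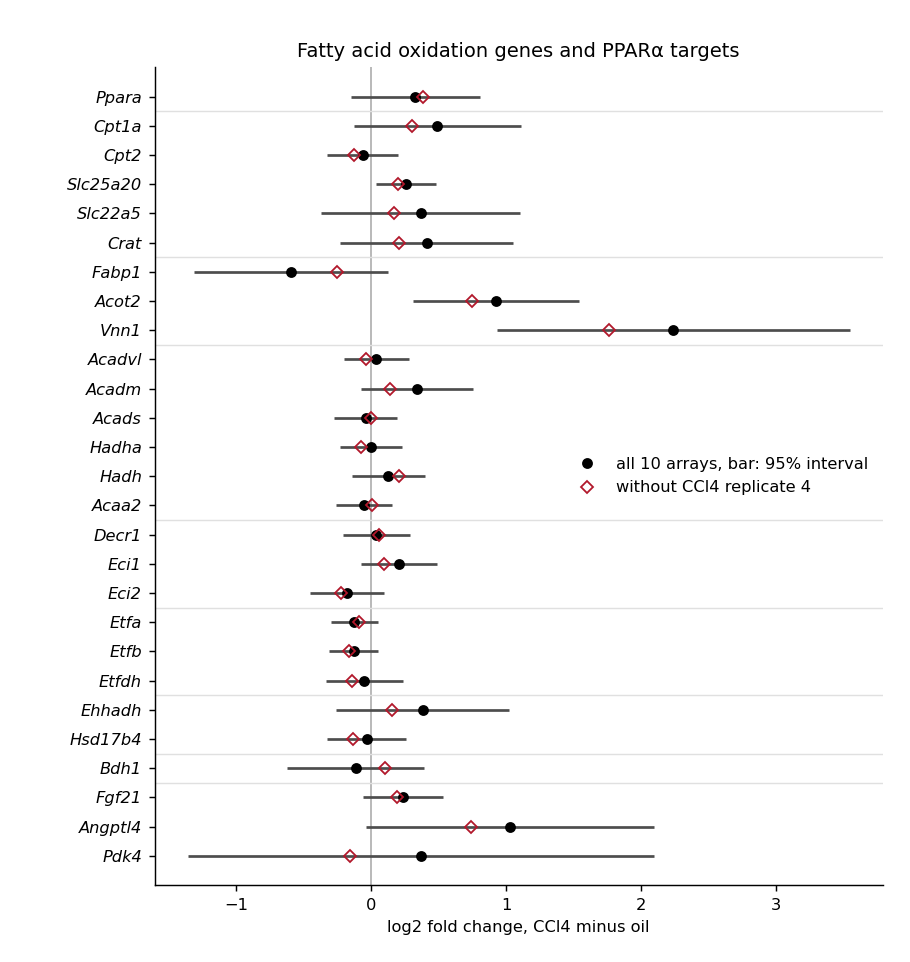
Log2 fold change (CCl4 minus oil) of each of the 27 measured genes, grouped by role from the receptor at the top to the fasting signals at the bottom. Black points and bars give the estimate from all 10 arrays with its 95% confidence interval, and red diamonds the estimate without CCl4 replicate 4. Most intervals include 0, with Slc25a20, Acot2 and Vnn1 as the exceptions, and the oxidation enzymes from Acadvl to Etfdh lie near 0.

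One array stood apart. CCl4 liver 4 was the highest of the 5 CCl4 livers for 18 of the 27 genes (66.7%), as it was for 30.5% of all genes. The mean of the 27 genes relative to oil livers was 0.05, 0.13, 0.10, 0.58 and 0.32 in CCl4 livers 1 to 5, against -0.15, 0.07, 0.03, 0.15 and -0.09 in oil livers 1 to 5. The same array had the lowest quality weight in limma, 0.459. Values without it are given beside the larger differences on which it weighed, and for all 27 genes in the plot of fold changes.

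Other genes that respond to feeding also differed in CCl4 liver 4. Over 10 genes of fatty acid synthesis it lay at -2.21 relative to oil livers, while the other CCl4 livers lay between -0.56 and 0.64. Over 5 genes of glucose production and fasting it lay at 2.97, while the other CCl4 livers lay between -0.02 and 0.71. Igfbp1 (12.27 in CCl4 liver 4, oil mean 4.95) and Ppargc1a (9.14, oil mean 5.05) lay furthest from oil livers. G6pc (11.92, oil mean 10.72), Pck1 (11.97, oil mean 10.52) and Tat (13.02, oil mean 12.25) lay nearer. Ppargc1a is also among the other pathway genes below. The part of feeding state in the values of that liver was not tested. Oil liver 1 was the lowest oil liver for 16 of the 27 genes (59.3%), as it was for 32.3% of all genes.

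**Figure D2:**
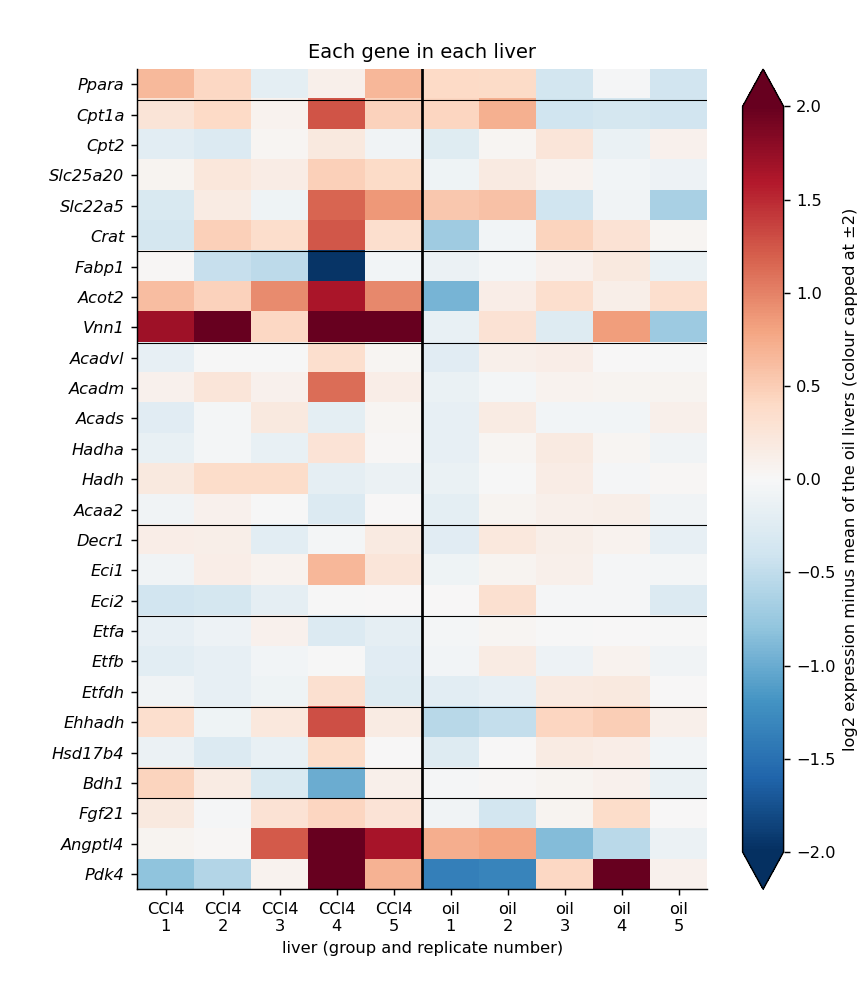
Log2 expression of each of the 27 genes in each liver minus the mean of the 5 oil livers, with CCl4 livers on the left and oil livers on the right (red higher, blue lower, colour capped at ±2). The column of CCl4 liver 4 holds the strongest colours, in both directions, and the block of oxidation enzymes from Acadvl to Etfdh is pale in both groups.

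The tissue label was checked with hepatocyte genes. Of 8 measured hepatocyte markers, albumin (Alb) and Hnf4a among them, 0 passed the threshold in either direction, with a median log2 fold change of 0.03. Their mean relative to oil livers ranged from -0.02 to 0.05 in CCl4 livers and from -0.04 to 0.04 in oil livers. Of the markers of other cells, 2 of 5 macrophage genes (Gpnmb and Cd68) and 5 of 6 stellate cell and matrix genes (all but Dcn) passed the threshold as higher. All genes of both lists had positive differences. Dcn, just short of the threshold, differed by 0.71 with a limma adjusted p of 0.0503. In RNA of whole liver, fewer cells of a type and less RNA per cell cannot be told apart.

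Ppara, the gene of the receptor itself, was 9.16, 8.93, 8.33, 8.62 and 9.18 in CCl4 livers 1 to 5, against 8.91, 8.90, 8.14, 8.50 and 8.14 in oil livers 1 to 5, in log2 units. The groups overlapped, with oil livers 1 and 2 level with CCl4 liver 2 and oil livers 3 and 5 lowest of all. The difference was 0.33 ± 0.22 (SE, 95% interval -0.15 to 0.81), with a limma adjusted p of 0.644.

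The oil livers also split in the clock gene Dbp, a transcription factor of the circadian output. Dbp was 8.72, 8.08, 5.74, 5.76 and 6.31 in CCl4 livers 1 to 5, against 8.39, 7.77, 3.43, 4.04 and 3.42 in oil livers 1 to 5. Its opposite in phase, Arntl, was 3.15, 3.21, 4.83, 6.08 and 4.71 in CCl4 livers, against 3.14, 3.41, 6.05, 6.08 and 5.38 in oil livers. Livers 1 and 2 of each group had high Dbp and low Arntl. Dbp minus Arntl was 0.92, -0.31 and 1.61 in CCl4 livers 3 to 5, against -2.62, -2.04 and -1.96 in oil livers 3 to 5. The groups were thus not level in this measure, and a fit with it can also take up part of the treatment difference. With Dbp minus Arntl as a covariate, the Ppara difference was 0.15, and 0 of the 27 genes passed. The differences of Crat and Ehhadh were 0.64 and 0.62 with that covariate, larger than the 0.41 and 0.38 without it.

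The promoters of 4 members are shown because PPARα and RXR bind a direct repeat, 2 copies of the half-site AGGTCA in the same orientation with 1 base between them. The 250 bases before the RefSeq start site (build GRCm38.p6) are printed 5′ to 3′ in the direction of the gene. Capitals mark matches on either strand to AGGTCA, which reads TGACCT on the opposite strand, or to a loose repeat, in which both copies are AGGNCA and N is any base. A half-site and the loose repeat overlap in Fabp1. Fabp1 was picked for the most negative fold change, Acot2 and Acadm because their groups did not overlap, and Cpt1a for its role as the entry step. Fabp1 lies at chr6:71199629-71199878 (plus strand), Cpt1a at chr19:3323051-3323300 (plus strand), Acadm at chr3:153944644-153944893 (minus strand) and Acot2 at chr12:83987611-83987860 (plus strand).
Fabp1: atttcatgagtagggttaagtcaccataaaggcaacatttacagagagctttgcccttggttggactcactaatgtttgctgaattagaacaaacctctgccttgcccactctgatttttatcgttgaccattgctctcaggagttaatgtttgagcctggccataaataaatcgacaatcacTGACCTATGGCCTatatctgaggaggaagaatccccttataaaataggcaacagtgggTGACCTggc
Cpt1a: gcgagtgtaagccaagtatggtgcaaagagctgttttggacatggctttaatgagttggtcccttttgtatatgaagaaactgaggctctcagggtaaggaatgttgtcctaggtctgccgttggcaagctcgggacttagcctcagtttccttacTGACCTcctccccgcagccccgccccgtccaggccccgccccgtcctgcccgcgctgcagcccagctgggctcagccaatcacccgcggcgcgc
Acadm: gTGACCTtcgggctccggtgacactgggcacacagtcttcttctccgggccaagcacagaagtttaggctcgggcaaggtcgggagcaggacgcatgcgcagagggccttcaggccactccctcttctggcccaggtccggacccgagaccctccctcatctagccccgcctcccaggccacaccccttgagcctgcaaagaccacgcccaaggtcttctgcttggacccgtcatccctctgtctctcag
Acot2: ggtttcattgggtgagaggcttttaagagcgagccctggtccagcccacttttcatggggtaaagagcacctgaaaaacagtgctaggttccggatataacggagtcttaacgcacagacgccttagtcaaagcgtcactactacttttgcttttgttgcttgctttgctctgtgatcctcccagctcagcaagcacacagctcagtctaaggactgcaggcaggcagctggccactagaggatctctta

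The Fabp1 window held the loose repeat from 67 to 55 bases before the start, and half-sites at 67 to 62 and at 9 to 4. The Cpt1a window held a half-site at 94 to 89 bases before the start, and the Acadm window one at 249 to 244. The Acot2 window held no match. Of 21 members with a window in the table, 4 held AGGTCA on either strand (Cpt1a, Fabp1, Acadvl and Acadm; 19.0%), as did 14.0% of all 32851 windows. The loose repeat stood in 1 of the 21, Fabp1, and in 0.338% of all windows, and the strict repeat, with both copies AGGTCA, in 0 of the 21 and in 0.0335%. Members were counted as genes with a match in any window, and the background as windows (32851 windows of 27025 genes), so the shares are of unlike units. A match describes the letters only, and binding was not measured.

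Entry of fatty acids into the mitochondrion is set by Cpt1a, the outer membrane carnitine palmitoyltransferase. Cpt1a was 9.13, 9.26, 8.94, 10.12 and 9.32 in CCl4 livers 1 to 5, against 9.29, 9.58, 8.47, 8.51 and 8.48 in oil livers 1 to 5. Oil livers 1 and 2 lay among the CCl4 livers, as for Ppara, and oil livers 3 to 5 lay below every CCl4 liver. The difference was 0.49 ± 0.28 (SE, 95% interval -0.13 to 1.11), with a limma adjusted p of 0.573, and 0.30 without CCl4 liver 4.

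Slc25a20, the carrier that exchanges acylcarnitine for carnitine across the inner membrane, had the narrowest spread of the shuttle genes and is named after its values were seen. It was 8.37, 8.54, 8.45, 8.79 and 8.69 in CCl4 livers 1 to 5, against 8.22, 8.49, 8.38, 8.26 and 8.22 in oil livers 1 to 5. CCl4 livers 2, 4 and 5 lay above every oil liver, and CCl4 livers 1 and 3 overlapped with oil livers 2 and 3. The difference was 0.26 ± 0.10 (SE, 95% interval 0.03 to 0.48), with an unadjusted p of 0.0273 and an adjusted p of 0.352 (limma).

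The other shuttle genes overlapped widely. Cpt2, which frees the acyl group inside, was at 8.28 ± 0.19 in CCl4 livers and 8.34 ± 0.19 in oil livers (SD, n = 5 each), a difference of -0.06. Crat, which makes acetylcarnitine, was at 7.24 ± 0.57 in CCl4 livers and 6.83 ± 0.45 in oil livers, a difference of 0.41, and 0.20 without CCl4 liver 4. Slc22a5, the carnitine importer of the cell surface, was at 5.11 ± 0.63 in CCl4 livers and 4.75 ± 0.55 in oil livers, a difference of 0.36, and 0.17 without CCl4 liver 4. The limma adjusted p of these 3 ranged from 0.675 to 0.913.

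The largest difference among the 27 genes was that of Vnn1, vanin 1, a pantetheinase that frees the vitamin used to make coenzyme A and a PPARα target in mouse liver. Vnn1 was 4.52, 5.59, 3.23, 6.96 and 5.0 in CCl4 livers 1 to 5, against 2.68, 3.11, 2.56, 3.65 and 2.10 in oil livers 1 to 5. Only CCl4 liver 3 lay inside the oil range, below oil liver 4. The oil values were dim, with oil liver 5 below the median of its array (2.55), so the size of the fold change is uncertain. The log2 fold change was 2.24 ± 0.59 (SE, 95% interval 0.93 to 3.55), or 4.72-fold, with an unadjusted p of 0.00328 and an adjusted p of 0.133 (limma). Without CCl4 liver 4 it was 1.76.

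Acot2, a mitochondrial thioesterase that splits acyl-CoA back to the free acid, had no overlap. Acot2 was 8.49, 8.33, 8.81, 9.50 and 8.84 in CCl4 livers 1 to 5, against 6.94, 8.00, 8.20, 7.99 and 8.21 in oil livers 1 to 5. The lowest CCl4 liver stood just above the highest oil liver, and oil liver 1 lay far below the rest. The log2 fold change was 0.93 ± 0.28 (SE, 95% interval 0.31 to 1.54), or 1.90-fold, with an unadjusted p of 0.00730 and an adjusted p of 0.190 (limma). It was 0.75 without CCl4 liver 4 and 0.69 without oil liver 1. With the clock covariate it was 1.15, with an adjusted p of 0.0549 (limma). Acot1, the cytosolic relative, was only on a probe set shared with other symbols and has no value here.

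Fabp1, the abundant liver protein that carries fatty acids through the cytosol, had the most negative difference. It was 11.33, 10.83, 10.77, 9.34 and 11.24 in CCl4 livers 1 to 5, against 11.18, 11.26, 11.38, 11.50 and 11.16 in oil livers 1 to 5. CCl4 livers 2, 3 and 4 lay below every oil liver, and CCl4 livers 1 and 5 inside their range. The difference was -0.60 ± 0.32 (SE, 95% interval -1.32 to 0.12), with a limma adjusted p of 0.549. Without CCl4 liver 4 it was -0.25.

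**Figure D3:**
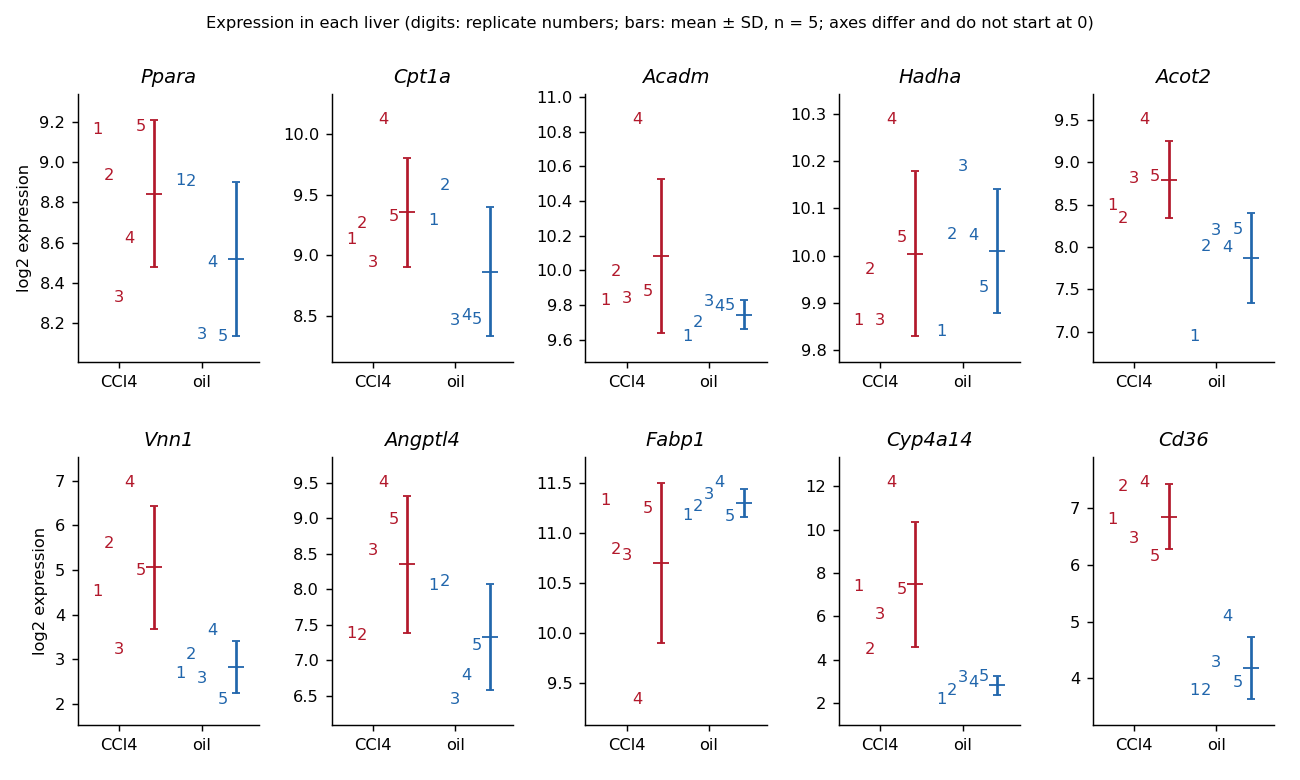
Log2 expression in each liver for 8 of the 27 genes and for Cyp4a14 and Cd36, with CCl4 livers in red on the left of each panel and oil livers in blue on the right. Digits are replicate numbers, bars give the mean ± SD of 5 livers, and each panel has its own axis, which does not start at 0. The groups do not overlap for Acadm, Acot2, Cyp4a14 and Cd36, and CCl4 liver 4 is the extreme CCl4 liver for Cpt1a, Acadm, Hadha, Acot2, Vnn1, Angptl4, Fabp1 and Cyp4a14.

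The enzymes of the mitochondrial spiral with its auxiliary enzymes and electron carriers formed the flattest group. Of these 14 genes, 12 were measured and 0 passed, with a median log2 fold change of -0.02, a range of -0.18 to 0.34 and limma adjusted p from 0.561 to 0.994. The 95% intervals of all 12 lay within ±1, and those of 11 within ±0.5, Acadm being the exception.

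Hadha, the subunit of the trifunctional protein that holds the hydratase and the long-chain hydroxyacyl dehydrogenase, was 9.86, 9.97, 9.86, 10.29 and 10.04 in CCl4 livers 1 to 5, against 9.84, 10.04, 10.19, 10.04 and 9.93 in oil livers 1 to 5. The groups lay on top of each other. The difference was -0.0053 ± 0.10 (SE, 95% interval -0.24 to 0.22), with a limma adjusted p of 0.994. Hadhb, the thiolase subunit of the same protein, was not measured on its own.

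Acadm, the medium-chain acyl-CoA dehydrogenase, is named after its values were seen, because its groups did not overlap. It was 9.83, 9.99, 9.84, 10.87 and 9.88 in CCl4 livers 1 to 5, against 9.62, 9.70, 9.82, 9.79 and 9.80 in oil livers 1 to 5. CCl4 liver 4 lay a full unit above the oil livers, while CCl4 livers 1 and 3 were barely above oil liver 3. The difference was 0.34 ± 0.19 (SE, 95% interval -0.08 to 0.75), with a limma adjusted p of 0.561, and 0.14 without CCl4 liver 4.

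The other spiral enzymes had small estimates. The very-long-chain dehydrogenase Acadvl was at 9.34 ± 0.19 in CCl4 livers and 9.30 ± 0.14 in oil livers (SD, n = 5 each). Short-chain Acads was at 7.26 ± 0.18 in CCl4 livers and 7.30 ± 0.13 in oil livers. The hydroxyacyl dehydrogenase Hadh was at 10.45 ± 0.26 in CCl4 livers and 10.33 ± 0.10 in oil livers. For Hadh, CCl4 livers 1 to 3 lay above every oil liver and CCl4 livers 4 and 5 near the lowest. The thiolase Acaa2 was at 10.87 ± 0.14 in CCl4 livers and 10.92 ± 0.13 in oil livers. The differences of these 4 ranged from -0.05 for Acaa2 to 0.13 for Hadh, with limma adjusted p from 0.795 to 0.954.

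Unsaturated chains need isomerases. Eci1, the mitochondrial enoyl-CoA isomerase, was 8.05, 8.24, 8.18, 8.77 and 8.36 in CCl4 livers 1 to 5, against 8.02, 8.16, 8.22, 8.08 and 8.08 in oil livers 1 to 5. Eci2, the isomerase found also in peroxisomes, was 8.68, 8.72, 8.89, 9.06 and 9.08 in CCl4 livers 1 to 5, against 9.07, 9.38, 9.04, 9.04 and 8.80 in oil livers 1 to 5. The groups overlapped for both genes, and CCl4 liver 4 was the highest of all 10 livers for Eci1 but not for Eci2. The differences were 0.21 (95% interval -0.07 to 0.49, adjusted p 0.604) for Eci1 and -0.18 (95% interval -0.46 to 0.09, adjusted p 0.662) for Eci2 (limma). Without CCl4 liver 4 they were 0.09 for Eci1 and -0.22 for Eci2. The contrast between the pair was not tested. Decr1, the dienoyl-CoA reductase, differed by 0.04 with a limma adjusted p of 0.957.

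Electrons from the acyl-CoA dehydrogenases pass to the flavoprotein made of Etfa and Etfb and from there to Etfdh. Etfa was 10.12, 10.19, 10.38, 10.02 and 10.11 in CCl4 livers 1 to 5, against 10.25, 10.33, 10.28, 10.30 and 10.28 in oil livers 1 to 5. All CCl4 livers but number 3 lay below every oil liver, and number 3 lay above every oil liver. Etfb was 9.32, 9.36, 9.48, 9.53 and 9.31 in CCl4 livers 1 to 5, against 9.48, 9.69, 9.43, 9.60 and 9.45 in oil livers 1 to 5. CCl4 livers 1, 2 and 5 lay below every oil liver. The differences of Etfa, Etfb and Etfdh were -0.12, -0.13 and -0.05, with limma adjusted p from 0.619 to 0.939.

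In the peroxisome, Ehhadh and Hsd17b4 each join a hydratase to a dehydrogenase. Ehhadh, a classic PPARα target in rodents, was 9.35, 8.93, 9.22, 10.31 and 9.19 in CCl4 livers 1 to 5, against 8.47, 8.55, 9.44, 9.51 and 9.13 in oil livers 1 to 5. The groups overlapped apart from CCl4 liver 4, which was highest, and oil livers 1 and 2, which were lowest. The difference was 0.38 ± 0.29 (SE, 95% interval -0.26 to 1.02), with a limma adjusted p of 0.705, and 0.16 without CCl4 liver 4. Hsd17b4 differed by -0.03 with a limma adjusted p of 0.969. The peroxisomal thiolases Acaa1a and Acaa1b were only on probe sets that carry both symbols or others and have no values here.

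Ketone bodies were represented by Bdh1, which turns acetoacetate into 3-hydroxybutyrate. It was at 8.69 ± 0.56 in CCl4 livers and 8.81 ± 0.08 in oil livers (SD, n = 5 each). The wide spread came with CCl4 liver 4, at 7.82, where the other CCl4 livers ranged from 8.51 to 9.26. The difference was -0.11 with a limma adjusted p of 0.922, and 0.10 without that liver.

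The last 3 members are fasting signals that PPARα raises in liver. Angptl4, a secreted inhibitor of lipoprotein lipase, was 7.38, 7.35, 8.55, 9.50 and 8.98 in CCl4 livers 1 to 5, against 8.06, 8.11, 6.45, 6.79 and 7.22 in oil livers 1 to 5. CCl4 livers 3 to 5 lay above every oil liver, while CCl4 livers 1 and 2 lay below oil livers 1 and 2. The difference was 1.03 ± 0.48 (SE, 95% interval -0.04 to 2.09), with a limma adjusted p of 0.466, and 0.74 without CCl4 liver 4.

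Pdk4, the kinase that shuts off pyruvate dehydrogenase, varied most among the 27 genes within the oil group and is named after its values were seen. It was 3.57, 3.79, 4.45, 6.86 and 5.07 in CCl4 livers 1 to 5, against 3.01, 3.06, 4.79, 6.59 and 4.46 in oil livers 1 to 5. In both groups liver 4 was highest and livers 1 and 2 were lowest. The difference was 0.37 (95% interval -1.36 to 2.10, limma adjusted p 0.927), and -0.16 without CCl4 liver 4. With the clock covariate it was 1.05, so that its sign and size depended on the setting. Fgf21, a hormone that the fasted liver secretes, was at 3.90 ± 0.16 in CCl4 livers and 3.66 ± 0.26 in oil livers (SD, n = 5 each), a difference of 0.23 with a limma adjusted p of 0.574.

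Spread between livers was larger in the CCl4 group for 19 of the 27 genes (70.4%), as it was for 59.9% of all genes. The median SD over the 27 genes was 0.26 in CCl4 livers and 0.19 in oil livers, and 0.17 in CCl4 livers without liver 4. CCl4 liver 4 exceeded the mean of the other CCl4 livers by 2.64 for Pdk4, 2.38 for Vnn1, 1.44 for Angptl4 and 1.13 for Ehhadh, and stood at -1.71 relative to that mean for Fabp1 and at -1.09 for Bdh1. Pdk4, Vnn1, Angptl4, Ehhadh and Fabp1 are PPARα targets in mouse liver, named here for their distance in that liver. Among other listed PPARα targets it stood on both sides of that mean, at -3.81 for G0s2 and -0.93 for Mgll, and at 2.05 for Cidec and 1.75 for Plin5. The part of PPARα in the values of that liver was not tested. Without CCl4 liver 4 the median log2 fold change of the 27 genes was 0.09.

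Around the 27 genes, 74 others of the pathway were listed, of which 56 were measured. Of these 56, 2 rose in CCl4 livers (Cd36 and Lpl) and 0 fell at an adjusted p under 0.05 (limma), where 0.630% and 0.0900% of all probe sets did. The median log2 fold change of the 56 was 0.08. In 4 of the 56, every CCl4 liver lay above every oil liver (Cd36, Lpl, Cyp4a14 and Acss1), as in 2.73% of all probe sets. Acss1 was dim, at 1.91 to 2.42 over the 10 livers, below the median of every array.

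Cd36, a fatty acid translocase of the cell surface and a PPARα target in mouse liver, was 6.81, 7.39, 6.46, 7.46 and 6.14 in CCl4 livers 1 to 5, against 3.78, 3.79, 4.28, 5.09 and 3.93 in oil livers 1 to 5. Every CCl4 liver lay at least 1 unit above the highest oil liver. The log2 fold change was 2.68 ± 0.32 (SE, 95% interval 1.97 to 3.38), or 6.40-fold, with a limma adjusted p of 0.00702. Lpl, lipoprotein lipase, which is low in the adult liver, was 8.14, 8.73, 6.82, 7.90 and 6.14 in CCl4 livers 1 to 5, against 3.57, 3.63, 5.38, 5.43 and 4.88 in oil livers 1 to 5. Its log2 fold change was 2.97 ± 0.55 (SE), or 7.82-fold, with a limma adjusted p of 0.0426. The Lpl call was kept in 1 of 10 fits that left out an array, the one without CCl4 liver 5, and lost in the other 9.

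Macrophages carry both Cd36 and Lpl. The mean of 5 macrophage markers relative to oil livers was 3.0, 3.35, 1.96, 3.01 and 1.24 in CCl4 livers 1 to 5, against -0.24 to 0.22 in oil livers. The mean of 6 stellate cell and matrix genes was 1.65 to 3.14 in CCl4 livers, against -0.26 to 0.50 in oil livers. CCl4 liver 5 was the lowest of the 5 for the macrophage markers, for the stellate cell and matrix genes, and for Cd36 and Lpl. The part of these cells in the Cd36 and Lpl values was not tested.

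Cyp4a14, an omega-hydroxylase of fatty acids that PPARα agonists raise strongly in mouse liver, was 7.37, 4.48, 6.10, 12.18 and 7.25 in CCl4 livers 1 to 5, against 2.16, 2.57, 3.19, 2.92 and 3.22 in oil livers 1 to 5. The groups did not overlap, and the CCl4 livers were spread far more widely than the oil livers. The oil values were dim, with oil liver 1 below the median of its array (2.54), so the size of the fold change is uncertain. The log2 fold change was 4.66 ± 1.14 (SE, 95% interval 2.13 to 7.20), or 25.3-fold, with a limma adjusted p of 0.110. Without CCl4 liver 4 it was smaller, 3.49, and the adjusted p was 0.0376 (limma). Vnn1 had the same highest liver, while its lowest CCl4 liver was number 3 and that of Cyp4a14 number 2. Its relative Cyp4a10 lacked a probe set of its own and was not analysed here.

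Of the other peroxisomal genes, 0 of 12 passed. Abcd2, a transporter of very long chains into the peroxisome, was 7.19, 7.19, 7.25, 7.20 and 6.22 in CCl4 livers 1 to 5, against 5.20, 6.11, 5.49, 6.75 and 4.83 in oil livers 1 to 5. The log2 fold change was 1.34 with a limma adjusted p of 0.131. Its relative Abcd3 differed by -0.23 with a limma adjusted p of 0.469. Of 7 further peroxisomal genes, 6 peroxins that build the organelle and catalase (Cat), 0 passed, with a median of -0.17.

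Of 17 partners and related receptors of PPARα, 0 passed. Rxra, the main RXR of liver, was at 8.12 ± 0.06 in CCl4 livers and 8.00 ± 0.19 in oil livers (SD, n = 5 each), a difference of 0.12 with a limma adjusted p of 0.730. Ppard, the related receptor, differed by -0.81 and Fgfr1, a receptor of FGF21, by 0.77, with limma adjusted p of 0.152 and 0.111. Plin2, a droplet coat protein listed among other PPARα targets, differed by 0.14 with a limma adjusted p of 0.874. Ppargc1a, a coactivator of PPARα, was 9.14 in CCl4 liver 4, where the other CCl4 livers ranged from 4.74 to 5.68, and its difference was 1.05 with a limma adjusted p of 0.654, and 0.29 without that liver.

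Of the remaining enzymes, Acat1, the ketogenic thiolase, differed by -0.10, Bdh2 by -0.54, Hsd17b10 by 0.17 and the acetyl-CoA synthetase Acss1 by 0.28, with limma adjusted p from 0.188 to 0.920. Without CCl4 liver 4 the differences were -0.28 for Bdh2 and -0.18 for Hsd17b10. For comparison outside the pathway, a list was taken of the mitochondrial respiratory chain, which takes up the electrons of oxidation. It also held Atp5a1 and Atp5b of the ATP synthase, Cs and Tfam. This list had a median log2 fold change of -0.04 over 13 genes, near the -0.02 of the mitochondrial oxidation enzymes. Of the 13, 0 passed. The difference between these lists was not tested.

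**Figure D4:**
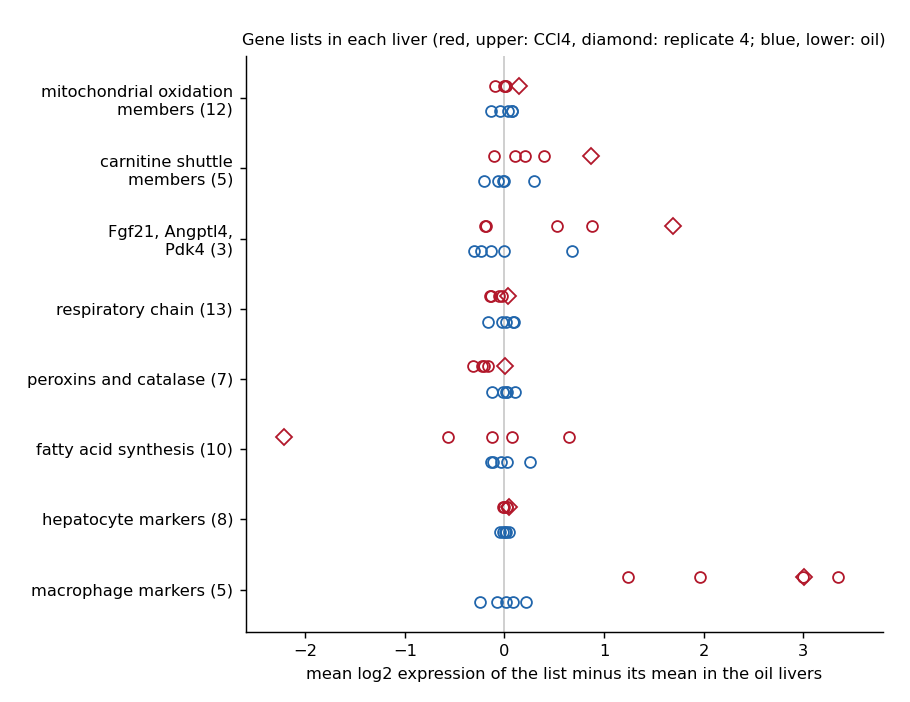
Mean log2 expression of each gene list in each liver minus its mean in the oil livers, with the number of measured genes in brackets. Red symbols (upper) are CCl4 livers, with replicate 4 as a diamond, and blue circles (lower) are oil livers. The lists of mitochondrial oxidation, respiratory chain and hepatocyte markers overlap between groups near 0, CCl4 liver 4 is the highest for the carnitine shuttle and the fasting signals and the lowest for fatty acid synthesis, and macrophage markers of all CCl4 livers lie above those of all oil livers. The respiratory chain list also holds Atp5a1, Atp5b, Cs and Tfam.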

How the data were processed

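RNA of whole liver from 5 CCl4 and 5 oil mice was measured on 10 Affymetrix whole-transcript arrays. Sources differ on the array, Mouse Exon 1.0 ST in the series text and the platform annotation (followed here) and Mouse Gene ST 1.0 in the methods. The authors deposited 1 value per probe set and array for 23332 probe sets, taken here as log2 because the largest lies between the natural and the base 2 logarithm of a 16-bit maximum. How they were background-corrected and normalized is not given in the sources used here, signal over background is unknown, and precision is limited by the number of arrays. Array medians ranged from 2.54 to 2.66 and correlations between arrays from 0.959 to 0.990. Gene names came from the platform table, in which 14996 probe sets had 1 symbol, 1019 several and 7317 none. Probe sets with several symbols named no gene, and the brightest probe set by the mean of 10 arrays stood for a gene.

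The deposited log2 values were used unchanged. CCl4 was compared with oil in limma 3.58.1 (R 4.3.3, lmFit then eBayes). P-values were Benjamini-Hochberg adjusted across the 23332 probe sets, called at 0.05, and the script was tested on simulated data. Tables were made in Python 3.11.15 with numpy 2.4.6, and figures with matplotlib 3.10.9. Alternatives were a replicate block, quantile normalization, median centring, brighter probe sets only, a trended and robust fit, array weights, a clock covariate, the methods' t-test, the mean of all probe sets of a gene and leaving out each array. Values of every array are given for the members with the 4 highest and the 4 lowest fold changes, and for Ppara, Cpt1a, Hadha and Ehhadh. They are also given for the pair Eci1 and Eci2 and for Acot2. Its relative Acot1 and the pair Acaa1a and Acaa1b were planned but not measured. From each list of other pathway genes, those past the threshold or the 2 with the smallest adjusted p are named, and Cyp4a14, Rxra, Ppargc1a, Cd36, Plin2, Dbp and Arntl whatever their values. Members and lists were chosen with earlier results of these data known. Promoter windows came from RefSeq, build GRCm38.p6, and 21 of the 27 genes had one.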

Additional observations from a re-analysis of the deposited data

Results flagged for a closer look

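In 8 of 82 groups of 5 livers (41 named genes in each treatment), 1 liver lay far from the other 4, with a gap to the nearest above Dixon's 95% limit of 0.71 of the whole range. Chance gives about 1 in 20 groups where groups are independent and normally spread. These groups share the same arrays, and some of the genes were named for small p-values here, so that rate is no measure for them. CCl4 liver 4 was that liver in 5 of the 8. Among the 27 members it stood at 9.34 for Fabp1, where the other CCl4 livers ranged from 10.77 to 11.33, and at 10.9 for Acadm, where they ranged from 9.83 to 9.99. Among other pathway genes it stood at 10.3 for Hsd17b10 (others 8.23 to 8.76), at 9.24 for Plin2 (others 9.45 to 9.50) and at 9.14 for Ppargc1a (others 4.74 to 5.68).

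Oil liver 1 was at 6.94 for Acot2, where the other oil livers ranged from 7.99 to 8.21, and at 3.11 for Fgfr1, where they ranged from 2.64 to 2.77. CCl4 liver 5 was at 6.22 for Abcd2, where the other CCl4 livers ranged from 7.19 to 7.25.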

How the results depend on the processing

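None of the 27 members passed an adjusted p under 0.05 in any of 18 alternatives fitted with limma, and the smallest adjusted p was 0.0512, for Vnn1 without CCl4 replicate 3. Of 540 fold changes of members under 20 alternatives, 510 kept their direction and side of the threshold, 2 passed only at the methods' p and fold thresholds (Acot2 and Vnn1), and 28 changed sign, the largest of these being 0.16 in size. Not every alternative could change a sign. Each member had 1 probe set, so the mean of all probe sets repeated the main fit for members. The replicate block, the brighter probe sets, the trended fit and the methods' t-test left member fold changes as they were and altered only p-values. The member median ranged from 0.02 to 0.19 when single arrays were left out. Members whose groups did not overlap numbered 1 higher with median centring, and 2 to 3 higher and 0 to 1 lower when single arrays were left out.

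Over all probe sets, higher and lower counts were 30 and 6 with the replicate block, 192 and 39 with quantile normalization, 145 and 36 with median centring, 251 and 47 among brighter probe sets, 45 and 9 with the clock covariate, 12 and 2 by the methods' t-test after Benjamini-Hochberg adjustment and 545 and 155 at its p and fold thresholds. They ranged from 30 to 259 and from 5 to 40 when single arrays were left out. Of the other pathway genes, 1 was higher with the replicate block, array weights or the clock covariate, 0 by the methods' t-test after adjustment, and 5 higher and 1 lower at its p and fold thresholds, and 1 to 2 were higher when single arrays were left out. The adjusted p of Lpl was 0.152 with the block, 0.0546 with array weights, 0.07 with the clock covariate and 0.147 by the methods' t-test after adjustment. The correlations of the deviations of same-numbered livers in the 2 groups ranged from -0.04 to 0.16 over the 5 numbers, above 0.1 for number 4 alone, and livers 1 and 4 correlated best with their own number. The labels name no shared source, and the numbers were not taken as pairs. Under the block, member calls stayed at 0.

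Signs turned mostly for genes near 0, but also for Pdk4, whose difference in the main fit was 0.37. The cause was not tested. The fold change was 0.0357 for Hadha and 0.00681 for Hsd17b4 with quantile normalization, and -0.0207 for Acadvl and -0.0223 for Decr1 with median centring. It was -0.0184 for Acadvl, 0.00163 for Bdh1 and -0.0388 for Hsd17b10 with array weights, and 0.0129 for Cpt2, 0.0453 for Hadha, 0.0347 for Etfdh and 0.0516 for Hsd17b4 with the clock covariate. When single arrays were left out it ranged from -0.103 to 0.00528 for Acads, -0.0762 to 0.0396 for Hadha, -0.134 to 0.0282 for Hsd17b4, -0.0386 to 0.0893 for Acadvl, -0.0999 to 0.00497 for Acaa2, -0.26 to 0.10 for Bdh1, -0.16 to 0.92 for Pdk4, -0.18 to 0.33 for Hsd17b10, -0.0198 to 0.0955 for Decr1 and -0.00980 to 0.25 for Plin2.

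With 5 arrays a group, a confidence interval as wide as that of Pdk4 or Angptl4 leaves a difference of 1 log2 unit undecided, while the intervals of the mitochondrial enzymes lay within that limit. Dim probe sets compress differences, which bears on Fgf21, Pdk4, Vnn1 and Slc22a5, the dimmest of the 27.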

Other observations

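Oxidation of fatty acids is stronger in periportal hepatocytes, and zonal genes were therefore read in the same livers. Of 7 pericentral genes, the zone in which CCl4 is activated, 0 passed in either direction (limma), with a median log2 fold change of -1.03 (-0.69 without CCl4 liver 4) and 5 of 7 below 0. Both medians are the value of Cyp1a2, which lay nearer 0 without that liver. Glul, Oat, Lhpp and Cyp2e1 lay further below 0 without it, at -1.19, -1.85, -1.53 and -0.27. Rhbg and Axin2 lay above 0 with and without it. In 3 of the 7 every CCl4 liver lay below every oil liver (Glul, Lhpp and Cyp1a2), as in 1.16% of all probe sets. Cyp1a2, a drug-metabolising enzyme, was 10.87, 10.65, 10.84, 9.03 and 10.71 in CCl4 livers 1 to 5, against 11.49, 11.44, 11.54, 11.35 and 11.45 in oil livers 1 to 5. Of 5 periportal genes 0 passed, with a median of 0.35, and 0.0087 without CCl4 liver 4. Both of these medians are the value of Asl. Without that liver Cdh1 and Pck1 lay above 0, at 0.94 and 0.46, and Hal and Arg1 below, at -0.19 and -0.02.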
